A study of Mus musculus with 6 samples.

Results

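Nr4a1, Nr4a2, Nr4a3, Klf2, Klf4 and Klf6 are 6 of the 21883 protein-coding genes of the RefSeq table of mouse assembly GRCm38.p6, taken by name. Their loci were read as the gene body with 50 kb on each side, and 85 of the 92712 merged regions of open chromatin lay there. The regions come from ATAC-seq, in which the transposase Tn5 inserts adapters into accessible DNA, of blood monocytes. The DTR group comprised 3 libraries of PF4cre-iDTR mice given diphtheria toxin and described in the labels as thrombocytopenic. The WT group comprised 3 libraries from WT mice, labelled controls, which also received the toxin and carry neither transgene. In the PF4cre-iDTR mice a Cre under the promoter of the platelet chemokine gene Pf4 switches on the toxin's receptor, so that the toxin removes megakaryocytes and platelets. The receptor follows past activity of that promoter, so any other cell in which it was active could also be hit. Age, sex and pooling of animals are not given in the labels used here, and the series title speaks of histone modifications where the sample titles and protocols describe ATAC-seq.

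The NR4A receptors are orphan nuclear receptors whose genes are switched on within minutes of a stimulus. In mice Nr4a1 is needed for the non-classical, Ly6C-low monocytes that patrol the vessel wall, and an enhancer upstream of it is known to be required for its expression in them. The Krüppel-like factors are zinc finger proteins that bind GT-rich boxes: Klf2 holds leukocytes quiescent, Klf4 is needed for mouse monocyte development and Klf6 takes part in inflammatory activation of macrophages.

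The promoters of all 6 genes lay in regions with a peak in every library, and those of the 3 Nr4a genes and Klf2 are shown for the motifs they hold. Promoters here are the RefSeq windows from 250 bases before to 50 bases after the gene start on GRCm38.p6, and each of the 6 lay wholly inside a region with a peak in all 6 libraries. At Klf4 this region was split into several peaks in some libraries, and whether those peaks covered the window was not tested. Each of the 3 Nr4a windows held 4 copies of TGACG, read on either strand, the core of the cyclic AMP response element through which CREB-family factors switch on immediate early genes. Capitals mark these copies.
Nr4a1, chr15:101266596-101266895, + strand: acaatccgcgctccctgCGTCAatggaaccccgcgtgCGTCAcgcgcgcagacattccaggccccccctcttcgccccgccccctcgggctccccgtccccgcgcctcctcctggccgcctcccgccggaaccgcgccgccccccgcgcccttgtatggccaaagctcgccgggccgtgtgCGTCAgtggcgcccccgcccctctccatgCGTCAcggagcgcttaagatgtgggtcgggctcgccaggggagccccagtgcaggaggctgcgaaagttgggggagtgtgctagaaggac
Nr4a2, chr2:57123954-57124253, - strand: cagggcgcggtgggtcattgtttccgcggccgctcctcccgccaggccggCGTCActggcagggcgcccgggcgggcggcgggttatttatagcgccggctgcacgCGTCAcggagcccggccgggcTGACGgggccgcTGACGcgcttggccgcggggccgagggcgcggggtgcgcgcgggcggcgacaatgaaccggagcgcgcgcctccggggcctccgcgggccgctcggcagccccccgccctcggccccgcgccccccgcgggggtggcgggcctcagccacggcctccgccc
Nr4a3, chr4:48045055-48045354, + strand: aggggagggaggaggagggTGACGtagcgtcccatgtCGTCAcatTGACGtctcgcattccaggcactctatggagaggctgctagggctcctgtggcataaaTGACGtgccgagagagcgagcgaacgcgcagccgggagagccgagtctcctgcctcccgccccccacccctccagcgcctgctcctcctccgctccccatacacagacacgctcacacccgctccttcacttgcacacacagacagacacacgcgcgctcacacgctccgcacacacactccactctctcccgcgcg
A count of 4 or more was found in 0.231% of 32841 promoter windows, and at least 1 copy in 20.8%. TGACG holds a CpG, a C followed by a G. The Nr4a1, Nr4a2 and Nr4a3 windows held 35, 52 and 26 CpGs, against a median of 7 over all windows. The share among windows equally rich in CpG was not computed. Klf2 and Klf4 held 1 copy each and Klf6 held 0. Klf2 had 1 match to a MEF2-type palindrome, CTA and TAG set 4 bases apart; MEF2 factors are known to carry the ERK5 signal that induces Klf2. That pattern was searched after the sequences had been seen, occurs in 3.69% of windows and is in capitals here.
Klf2, chr8:72318812-72319111, + strand: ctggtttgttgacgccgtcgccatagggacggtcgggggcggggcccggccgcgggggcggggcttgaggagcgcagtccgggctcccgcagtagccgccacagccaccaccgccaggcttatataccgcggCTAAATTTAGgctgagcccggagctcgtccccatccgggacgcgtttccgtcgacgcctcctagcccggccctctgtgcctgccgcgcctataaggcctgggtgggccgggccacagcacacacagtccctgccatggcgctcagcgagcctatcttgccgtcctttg
GGGTG, a GT box of the kind KLF proteins bind (CACCC on the other strand), occurred 2 times in Nr4a2, 3 times in Nr4a3 and 1 time in Klf2, and 57.5% of windows held it. The full response element TGACGTCA, which contains TGACG on both strands, the NR4A monomer site AAAGGTCA and the ETS letters CCGGAAG had 0 matches in the 6 windows, against 1.79%, 1.51% and 8.86% of all windows. The 6 windows were rich in G and C, from 63.0% at Klf6 to 81.7% at Nr4a2, against a median of 52.7% over all windows. These are matches of letters only.

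Each library has a peak list of its own, deposited by the authors, and column 7 of it, the fold enrichment over the caller's background (a ratio), is called the fold here. The DTR lists held 81530 to 83993 peaks and the WT lists 77825 to 80437 on the 21 chromosomes used. The read depth is unknown, so a longer list cannot be told apart from deeper sequencing. The label of the cells was checked at gene starts with 1 kb on each side: 6 of 6 monocyte markers with a start in the table (Ly6c2, Ccr2, Cx3cr1, Itgam, Fcgr1 and Ly86) were open in all 6 libraries. Of the markers of other cells, 1 of 3 neutrophil genes (S100a8), 2 of 5 megakaryocyte and platelet genes (Gp9 and Pf4), 2 of 4 erythroid genes (Klf1 and Epor), 0 of 4 T and NK genes and 0 of 2 B-lineage genes were open in all 6, against 58.0% of 17491 protein-coding starts. After the starts had been moved by 20 kb, 12.7% and 12.8% were open, and no build is named in the sources used here. The part of such cells in the results was not tested.

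All 6 loci held peaks in every DTR and every WT library. Of their 85 regions, 74 (87.1%) had a peak in all 6 libraries, against 74.1% of all merged regions. None had a peak in all 3 DTR and 0 WT libraries or the reverse, where 0.821% and 0.0992% of all regions did. With shares this low, 0 of 85 does not show that the groups are alike. Of the 11 remaining regions, 7 had a peak in 1 library each, 1 of them at Nr4a1, 2 at Nr4a3 and 4 at Klf4. The 1 such region at Nr4a2 had peaks in 0 DTR and 2 WT libraries, that at Klf2 in 2 DTR and 3 WT libraries, and both at Klf6 in 1 DTR and 1 WT library. Absence of a peak at unknown depth is not absence of open chromatin, and in these bulk libraries fewer cells of a type cannot be told apart from less open chromatin per cell.

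The region at the gene start differed more between genes than between groups. At Nr4a2 it had folds of 9.03, 8.62 and 9.05 in DTR libraries and 8.71, 9.21 and 8.71 in WT libraries (chromosome 2, 57123435 to 57124533). The values of the groups overlap, and the start was the most enriched region of this locus. At Nr4a1 the start (chromosome 15, 101265898 to 101267938) had folds of 3.39, 3.19 and 3.25 in DTR libraries, against 3.36, 3.33 and 3.61 in WT libraries. Its covered length was 1974, 2040 and 1980 bp in DTR libraries and 1951, 2037 and 1926 bp in WT libraries, so it was wide and of low fold in every library. The Nr4a3 start (chromosome 4, 48044545 to 48045560) had folds of 3.31, 3.31 and 3.33 in DTR libraries and 3.33, 3.13 and 3.36 in WT libraries. As deposited, the groups overlap at both of these starts; after centring of the libraries every DTR value lay below every WT value at Nr4a1 (difference -0.10 on the log2 scale, SE 0.06; limma, adjusted p = 0.576).

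Klf2 had folds at its start (chromosome 8, 72318703 to 72319718) of 4.82, 4.57 and 4.60 in DTR libraries, against 4.77, 4.78 and 5.08 in WT libraries, which overlap as deposited and not after centring (difference -0.09, SE 0.05; limma, adjusted p = 0.572). At the Klf6 start (chromosome 13, 5860726 to 5862566) the folds were 4.48, 4.48 and 4.57 in DTR libraries, against 4.60, 4.95 and 5.05 in WT libraries. Here every DTR value lay below every WT value, by little: the centred difference was -0.14 on the log2 scale (SE 0.06; limma, adjusted p = 0.443 over 68681 shared regions). The Klf4 start (chromosome 4, 55530143 to 55533445), which is shared with the lncRNA gene Gm12506, had folds of 3.47, 4.41 and 3.03 in DTR libraries and 4.74, 4.80 and 4.75 in WT libraries. All DTR values were below all WT values, with the most negative difference of the 74 regions, -0.44 (SE 0.12; limma, adjusted p = 0.310).

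This Klf4 stretch was cut differently by the caller between libraries. It was called as 1, 3 and 1 peaks in the DTR libraries and as 2, 3 and 3 peaks in the WT libraries, and the covered length was 3225, 1919 and 3268 bp in DTR, against 2471, 1873 and 1772 bp in WT (exact permutation p = 0.2). The libraries with a single long peak had the lowest folds; a region took the highest fold of its peaks. With the fold averaged over peaks by length, the values were 3.47, 3.52 and 3.03 in DTR libraries and 3.18, 3.83 and 3.91 in WT libraries. The groups then overlap, and the difference was -0.15 (limma, adjusted p = 0.570). Among the libraries with 3 peaks, the highest fold was 4.41 in DTR library 2 and 4.80 and 4.75 in WT libraries 2 and 3. Whether the cutting accounts for the difference was not tested. Only 4 of the 74 regions had unequal numbers of peaks between libraries: this one, 1 in Nr4a2 and 2 in Nr4a1.

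**Figure D1:**
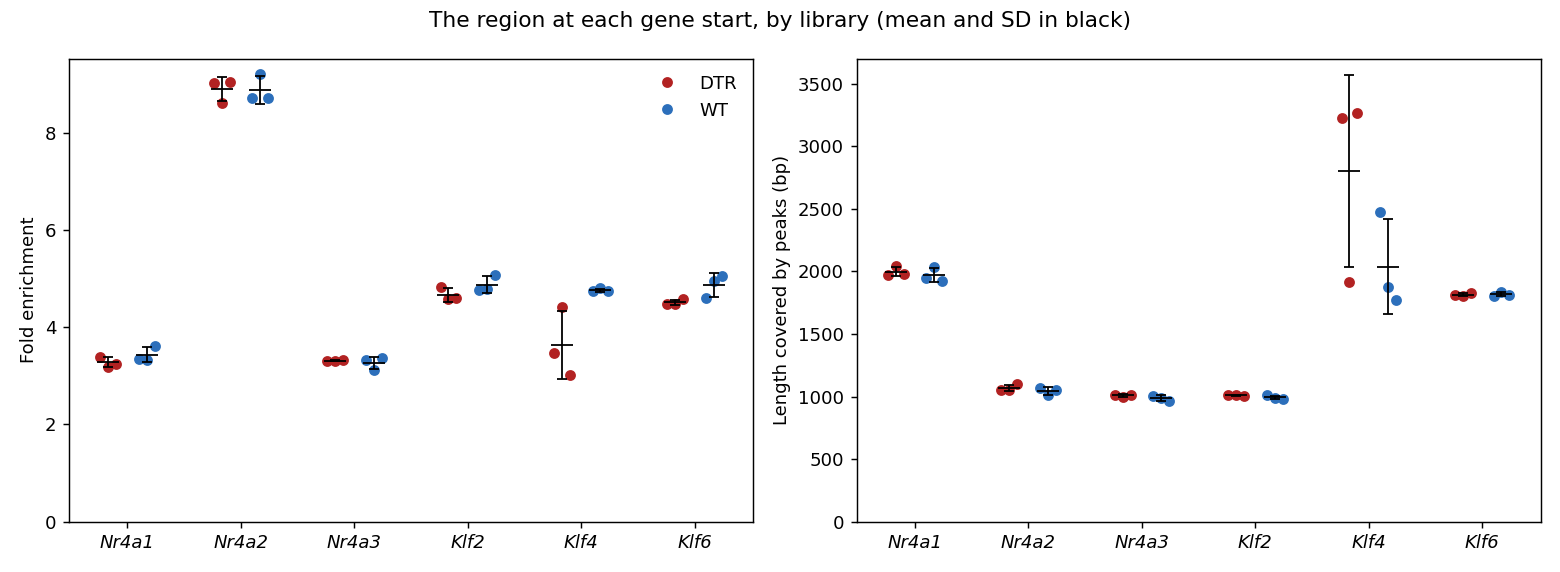
Fold enrichment (left) and length covered by peaks in bp (right) of the region at each gene start. Points are libraries, DTR left of WT, and black bars are the mean and SD of 3 libraries. The Nr4a2 start sits near 9 in both groups, and the Klf4 start has the widest spread, from 3.03 to 4.41, among the DTR values and the narrowest, from 4.74 to 4.80, among the WT values.

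The loci differed widely in how much open chromatin they held, in nearly the same order in DTR and WT libraries, with Nr4a3 and Klf4 changing places. Nr4a1 was the largest, with 22, 23 and 23 peaks in DTR libraries and 23, 24 and 24 in WT libraries, and a mean number above that of 96.9% of 18148 protein-coding loci with a peak. Klf2 followed with 18, 18 and 17 peaks in DTR libraries and 18 in each WT library. Klf6 had 13, 13 and 12 peaks in DTR libraries and 12, 13 and 13 in WT libraries. Nr4a3 had 11, 11 and 12 peaks in DTR libraries and 11, 12 and 11 in WT libraries, and Klf4 had 9, 12 and 9 in DTR libraries and 10, 13 and 12 in WT libraries, so neither these genes nor Klf6 are separated beyond their spread. Nr4a2 was the smallest, with 4 peaks in each DTR library and 4, 5 and 6 in the WT libraries. The median over all loci was 9.5 peaks.

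Number of peaks in the full lists did not separate the groups at any of the 6 genes, where every DTR library lay above every WT library at 5.31% of all loci and below at 0.507%. DTR minus WT was -1 at Nr4a1 (exact permutation p = 0.3), -1 at Nr4a2 (p = 0.4), -1.67 at Klf4 (p = 0.3) and -0.333 at Klf2 (p = 1), all by the exact test, and 0 at Nr4a3 and Klf6. These counts depend on how the caller cut open stretches. At Nr4a1 every library had a peak in the same 21 regions, with 1 more region in DTR library 3. Its stretch at -13290 bp was whole only for DTR library 1, and cut into 2 elsewhere. Its stretch at 7833 bp held 2, 2, 1 pieces for DTR against 2, 3, 3 for WT. The Klf4 start held 1, 3, 1 against 2, 3, 3. A lower count is not read as fewer open regions, and counts without these stretches were not tested. With lists cut to equal length the Nr4a1 difference was -2.67 and every DTR library lay below every WT library (exact permutation p = 0.1). The share of all loci that separate in this way was not computed for lists of equal length. The median difference was -0.667 peaks over the 6 genes and 0.333 over all loci. With 3 libraries against 3 the smallest p of this two-sided test is 0.1, and its smallest value adjusted over all loci was 1.

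Length covered by peaks was higher in DTR on average at all 6 loci, as at most loci of the genome. At Nr4a1 it was 21048, 20591 and 21025 bp in DTR libraries, against 20527, 17454 and 19367 bp in WT libraries, and at Klf6 9944, 9505 and 9483 bp in DTR, against 9124, 9078 and 9013 bp in WT. At these 2 of 6 loci every DTR value lay above every WT value, which 23.9% of all loci showed (0.320% showed the reverse). The difference was 1772 bp at Nr4a1 and 572 bp at Klf6 (exact permutation p = 0.1 and adjusted p = 0.413 for each over all loci). The Nr4a1 means were 20888 ± 257 bp in DTR and 19116 ± 1552 bp in WT (SD, n = 3 each). Without WT library 2 the Nr4a1 difference was 941 bp, and with lists cut to equal length it was 1018 bp and the groups overlapped (exact permutation p = 0.4). Klf2 covered 12287, 11425 and 11642 bp in DTR libraries and 11859, 10942 and 10941 bp in WT libraries, and Klf4 7445, 6630 and 7432 bp in DTR libraries and 6708, 6554 and 6713 bp in WT libraries. The differences were 537 bp for Klf2 and 511 bp for Klf4 (exact permutation p = 0.3 for each), 242 bp for Nr4a3 (p = 0.5) and 137 bp for Nr4a2 (p = 0.8). The Nr4a1 and Klf4 values include stretches that the caller cut unequally. At Nr4a1, 2 such stretches covered means of 4473 and 1567 bp in DTR, against 2957 and 1317 bp in WT. The Klf4 start covered a mean of 2804 bp in DTR and 2039 bp in WT. Covered length without these stretches was not tested. The median over all loci was 317 bp, against 524 bp over the 6 genes.

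Median peak width overlapped between the groups at all 6 genes, while 9.78% of loci had every DTR value above every WT value and 3.06% the reverse. It ranged from 461 ± 26.0 bp in DTR and 424 ± 36.1 bp in WT at Klf2 to 972.5 ± 7.05 bp in DTR and 950 ± 58.0 bp in WT at Nr4a2 (SD, n = 3 each). The most unequal means were those of Klf6, with 907, 476 and 718.5 bp in DTR libraries and 680, 454 and 437 bp in WT libraries (exact permutation p = 0.2). DTR library 2 of Klf6 was as low as the WT libraries.

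**Figure D2:**
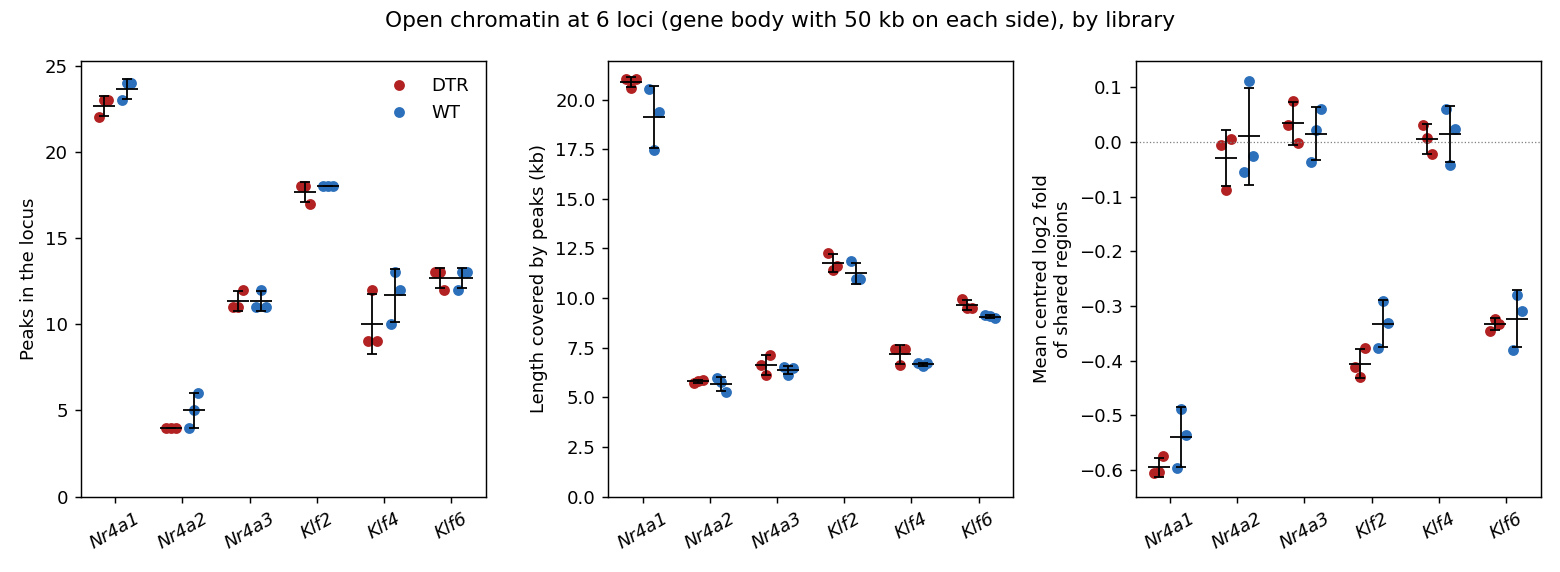
Number of peaks (left), length covered by peaks in kb (middle) and mean centred log2 fold of shared regions (right) at the 6 loci. Points are libraries, DTR left of WT, with mean and SD in black. Nr4a1 has 22 to 24 peaks and the lowest mean log2 fold, and Nr4a2 has 4 to 6 peaks.

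Enrichment was compared at regions with a peak in all 6 libraries, with each library centred on its median log2 fold over all 68681 such regions. A value of 0 is then the fold of a typical shared region. Nr4a1 had the lowest mean, with -0.61, -0.60 and -0.57 in DTR libraries and -0.60, -0.49 and -0.54 in WT libraries, and 1.28% of 17706 loci were lower. Its covered length exceeded that of 99.3% of loci, so the locus was wide and of low fold in both groups. Over all loci, covered length and mean log2 fold were inversely related (Spearman's rho = -0.37 across 17706 loci, which overlap and are not independent), and the 178 loci with the largest covered length had a median of -0.18. Klf2 and Klf6 were also low, with -0.41, -0.43 and -0.38 in DTR libraries and -0.38, -0.29 and -0.33 in WT libraries for Klf2, and -0.35, -0.32 and -0.33 in DTR libraries and -0.38, -0.28 and -0.31 in WT libraries for Klf6. Klf4, Nr4a3 and Nr4a2 lay near 0 in every library, from -0.09 to 0.08 in DTR and from -0.05 to 0.11 in WT.

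Klf2 was the 1 gene of 6 at which every DTR library lay below every WT library in this measure, before rounding; 14.1% of loci showed this, and 6.77% the reverse. The difference at Klf2 was -0.07 on the log2 scale (exact permutation p = 0.1, adjusted p = 0.480 over all loci). The difference was -0.06 at Nr4a1 (exact permutation p = 0.2), -0.04 at Nr4a2 (p = 0.6), 0.02 at Nr4a3 (p = 0.6), -0.01 at Klf4 (p = 0.9) and -0.01 at Klf6 (p = 0.8), each by the exact test. With the folds as deposited, without centring, the Klf2 difference was -0.04 and its groups overlapped (exact permutation p = 0.4), and Klf4 and Klf6 turned to 0.02 each. In a 10 kb window the differences were -0.10 at Nr4a1, -0.10 at Klf2 and -0.07 at Klf6 (exact permutation p = 0.1 for each). They were -0.18 at Klf4 (p = 0.3), -0.04 at Nr4a2 (p = 0.6) and -0.02 at Nr4a3 (p = 0.8), by the same exact test. The share of all loci at which the groups separate was not computed for that window, so no count of separated genes is read from it. The median over the 6 genes was -0.02 and over all loci -0.01.

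None of the 74 shared regions differed in fold by limma at an adjusted p of 0.05, and 0 of 68681 did in all (0%). At an unadjusted p under 0.05 limma counted 5 of the 74 (6.76%), against 7502 (10.9%) of all. The smallest adjusted p at the 6 loci was 0.279. After centring, 49 regions lay lower in DTR and 25 higher, or 66.2% lower, where 56.8% of all shared regions were lower. As deposited, 38 lay lower and 36 higher, or 51.4% lower, where 44.7% of all were. The share of lower regions thus changed with the scaling, at the 6 loci and over all regions. The median centred difference was -0.03 at the 6 loci and -0.02 over all shared regions.

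At 12 of the 74 regions (16.2%) every DTR fold lay below every WT fold after centring, where 11.2% of all shared regions showed this, and at 2 (2.70%) every DTR fold lay above, where 6.77% did. With the folds as deposited these numbers were 5 (6.76%) and 3 (4.05%), where 5.14% and 10.4% of all shared regions were lower and higher. The counts thus changed with the scaling, and no direction is read from 5 against 3. Of the 12, 5 lay at Nr4a1, 4 at Klf2 and 1 each at Nr4a2, Klf4 and Klf6, and both of the higher ones lay at Klf2 and Klf6.

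**Figure D3:**
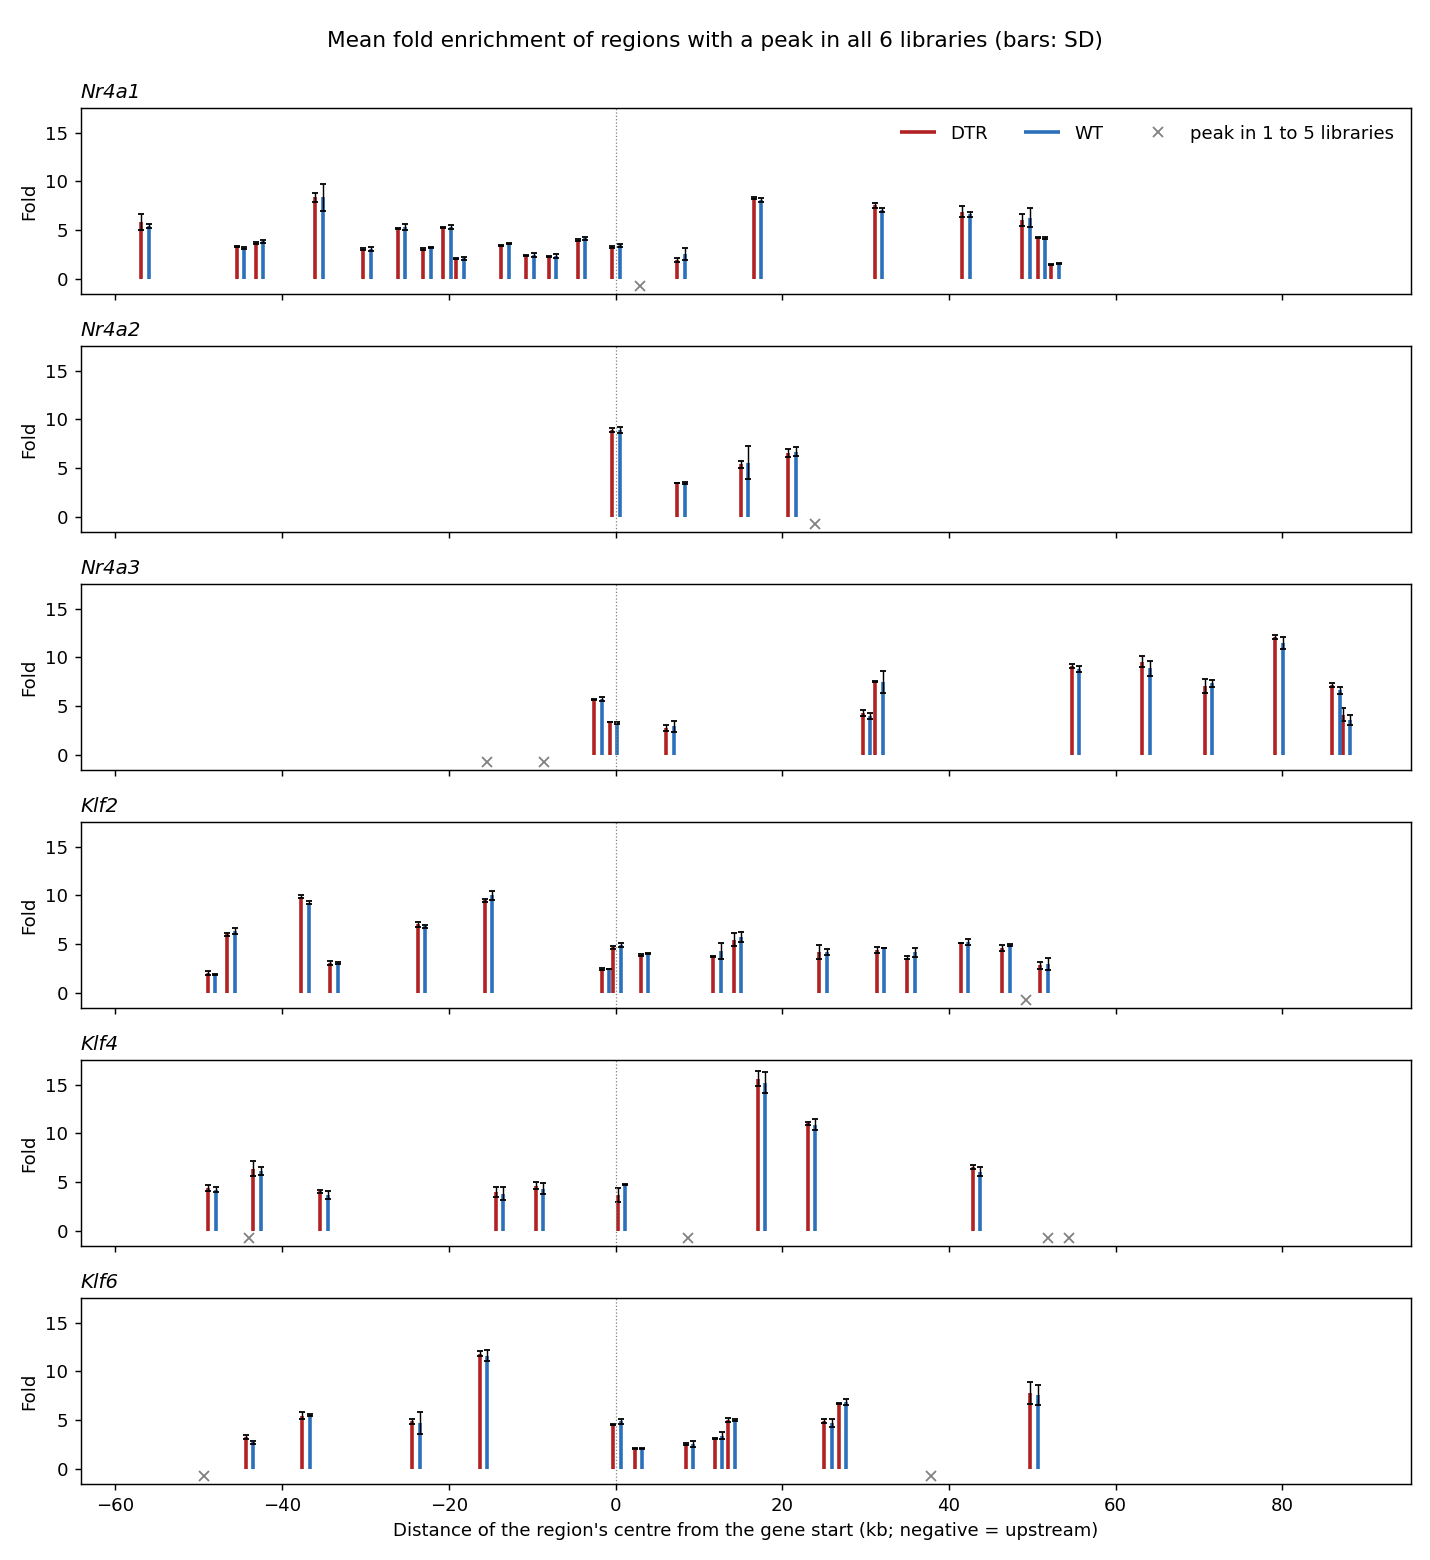
Mean fold of each shared region (vertical axis) against the distance of its centre from the gene start in kb (horizontal axis, negative upstream), DTR left of WT. Error bars are SDs of 3 libraries, and crosses are regions with a peak in 1 to 5 libraries. The highest bars are those of Klf4 downstream of the gene, at 15.6 in DTR and 15.2 in WT.

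The most enriched region of each locus was seldom its promoter. At Klf4 it lay 17479 bp downstream of the start (centre; chromosome 4, 55514689 to 55515303), with folds of 15.1, 15.3 and 16.5 in DTR libraries and 14.0, 15.8 and 15.8 in WT libraries. It exceeded 99.9% of shared regions, and the groups overlap. At Klf6 it lay upstream, at -15838 bp (chromosome 13, 5845182 to 5846121), with folds of 12.1, 11.6 and 11.8 in DTR libraries and 11.5, 11.1 and 12.2 in WT libraries. At Klf2 it lay upstream, at -15278 bp (chromosome 8, 72303231 to 72304336), with 9.51, 9.32 and 9.59 in DTR libraries and 10.2, 9.51 and 10.3 in WT libraries. Neither region separated the groups. Those of Nr4a3 and Nr4a1 lay in neighbouring genes: the promoter of Stx17, which encodes an autophagy SNARE protein (12.2, 11.9 and 12.2 in DTR libraries and 11.2, 11.1 and 12.2 in WT libraries), and the gene body of Grasp (8.84, 8.30 and 7.91 in DTR libraries and 7.22, 9.95 and 7.85 in WT libraries). A window of 50 kb thus takes in peaks that may belong to other genes, and 5 of the 85 regions lay at the promoter of another gene.

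Upstream of Nr4a1 the chromatin was open in a chain of regions. The gene body of the table begins before the listed promoter. Shared regions that overlap this stretch had their centres at -13290, -10276, -7567 and -4100 bp from the start. The farthest spans the upstream end of the gene body, and its centre lies outside it. The farthest of them (chromosome 15, 101252548 to 101254563) had folds of 3.34, 3.37 and 3.49 in DTR libraries, against 3.50, 3.66 and 3.64 in WT libraries. Every DTR value was below every WT value as deposited, after centring (difference -0.11, SE 0.05; limma, adjusted p = 0.5004) and with folds averaged by length. It was called as 1, 2 and 2 peaks in DTR and as 2 peaks in each WT library. The groups overlapped at the next 2 regions. The nearest (chromosome 15, 101262525 to 101262966) had folds of 3.98, 4.12 and 3.87 in DTR libraries, against 3.97, 4.24 and 4.24 in WT libraries, and covered 423, 428 and 427 bp in DTR and 425, 413 and 430 bp in WT. As deposited, the folds overlap; after centring every DTR value was below every WT value (difference -0.09, SE 0.05; limma, adjusted p = 0.582). No label marks any of these regions as the known enhancer.

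At the other end of Nr4a1 lay the widest region of the 6 loci (chromosome 15, 101272016 to 101277342), which spans the end of the gene and is 5327 bp long. Its folds were 2.04, 1.997 and 1.73 in DTR libraries and 1.91, 3.11 and 2.54 in WT libraries, and it was called as 2, 2 and 1 peaks in DTR and 2, 3 and 3 in WT. The covered length was 4463, 4054 and 4903 bp in DTR, against 4083, 1592 and 3197 bp in WT, so WT library 2 was the shortest with the highest fold. The difference in fold was -0.40 (SE 0.16; limma, adjusted p = 0.449), and -0.20 when averaged by length. It was -0.23 without WT library 2. The widest region of Nr4a2 was 3472 bp long and lay in its gene body (chromosome 2, 57114404 to 57117875), with folds of 3.48, 3.42 and 3.42 in DTR libraries and 3.44, 3.41 and 3.54 in WT libraries.

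The highest positive difference was at Klf6, upstream at -43952 bp from the start (chromosome 13, 5817057 to 5818016). Folds there were 3.08, 3.41 and 3.30 in DTR libraries, against 2.57, 2.65 and 2.86 in WT libraries, and covered length was 960, 458 and 448 bp in DTR, against 351, 364 and 392 bp in WT. Both measures were above WT in every DTR library, with a difference in fold of 0.25 (SE 0.06; limma, adjusted p = 0.279), the smallest adjusted p of the 74 regions. The region lay in no gene of the table. At Klf2 a region in the neighbouring gene Eps15l1 (35426 bp downstream) went the other way in fold, with 3.61, 3.72 and 3.47 in DTR libraries and 3.63, 4.17 and 4.62 in WT libraries (difference -0.22, SE 0.08; limma, adjusted p = 0.416). It was wider in every DTR library, at 346, 311 and 309 bp, against 284, 248 and 220 bp in WT. Covered length was higher in every DTR library at 23.9% of protein-coding loci. The share over all shared regions is not given here, so neither this width difference nor that at Klf6 is read as particular to its region.

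**Figure D4:**
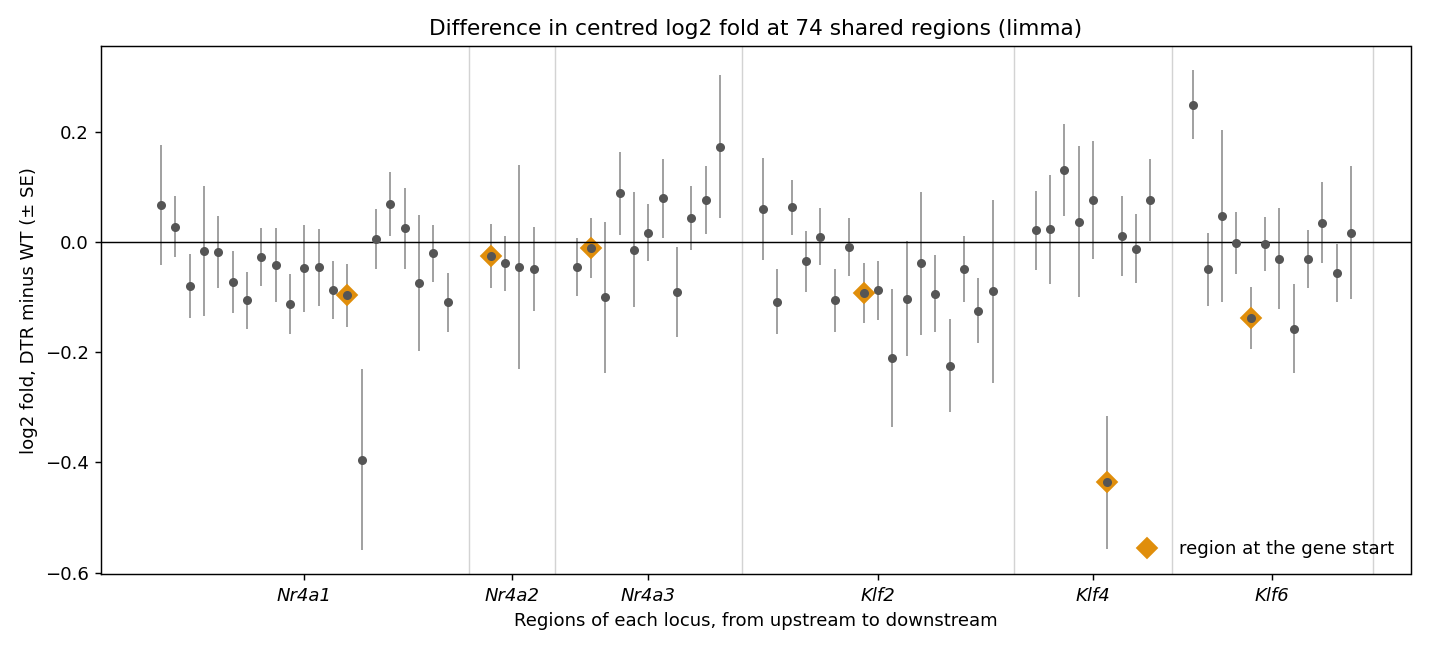
Difference in centred log2 fold, DTR minus WT, with its SE (vertical axis) for the 74 shared regions ordered from upstream to downstream in each locus (horizontal axis). Diamonds are regions at the gene start. The values run from -0.44 at the Klf4 start to 0.25 upstream of Klf6.

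Genes tied to the 6 by function were read in the same way, from lists of upstream regulators, partners and turnover factors, other KLF genes and monocyte fate genes. In none of the 5 lists did a region pass limma's test, and 2.90% (classical monocyte genes) to 11.8% (partners and turnover) of their regions had an unadjusted p under 0.05, against 10.9% of all. By mean log2 fold, every DTR library lay below every WT library at 3 of 14 upstream regulators, 3 of 8 partners, 0 of 12 other KLF genes, 5 of 10 non-classical and 2 of 6 classical monocyte genes, against 14.1% of loci. The reverse held for 0, 2, 1, 1 and 0 of them, against 6.77%. Among the upstream regulators, Mapk7, which encodes ERK5, had 0.27, 0.20 and 0.27 in DTR libraries and 0.36, 0.33 and 0.33 in WT libraries (exact permutation p = 0.1, adjusted p = 0.480). Wwp1, whose ubiquitin ligase marks KLF2 for degradation, had 0.39, 0.38 and 0.45 in DTR libraries and 0.35, 0.34 and 0.25 in WT libraries. Mapk7 was lower in every DTR library and Wwp1 higher. The largest difference among the upstream regulators was at Creb1, at -0.11, where the groups overlapped (exact permutation p = 0.2). Among the other KLF genes it was at Klf15, at 0.15, where the groups also overlapped (exact permutation p = 0.3).

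Among fate genes, Itgal, the integrin LFA-1 chain high on non-classical monocytes, had 0.14, 0.18 and 0.17 in DTR libraries and 0.22, 0.29 and 0.29 in WT libraries. Ccr2, the chemokine receptor of classical monocytes, had -0.11, -0.11 and -0.12 in DTR libraries and -0.03, -0.05 and -0.03 in WT libraries. At both genes the groups did not overlap (exact permutation p = 0.1, adjusted p = 0.480 for each), with every DTR value the lower one, and neither passed after adjustment. The largest difference of the classical list was at Chil3, at -0.14, again with every DTR value below every WT value (exact permutation p = 0.1, adjusted p = 0.480). The median difference was -0.03 for the non-classical and -0.05 for the classical list, beside -0.02 for the 6 genes and -0.01 for all loci.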

How the data were processed

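ATAC-seq peaks of 3 DTR and 3 WT monocyte libraries were used, grouped by the sample titles. Per the labels' protocols, aliquots of 50000 cells were permeabilised with digitonin, tagmented with Tn5 and sequenced in pairs. MACS2, Bowtie2 version 2.4.4, Bowtie and fastp are named by the submitters' processing notes. Parameters, any Tn5 shift and the genome build: not given in the sources used here. The authors deposited 1 broad peak list per library holding for each peak a score, a fold enrichment (a ratio to background) and its p-value and q-value as −log10. No counts are in the lists, so depth is unknown and precision rests on the spread of the libraries. Folds are the authors' values.

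Overlapping or touching peaks of the 6 lists, on 21 chromosomes, were merged (Python 3.11.15, pandas 2.3.3). A region took a library's highest fold and summed peak length. Shared regions had a peak in all 6 libraries, and their log2 folds were centred on each library's median and compared with limma 3.58.1, Benjamini-Hochberg threshold 0.05. For locus values, DTR minus WT was tested over libraries with an exact permutation test (two-sided), adjusted over all protein-coding loci. Both were tested on simulated data, where limma missed most of the smaller seeded differences, so a lack of calls does not show equal folds. Whether libraries came from separate animals is not stated, so p-values measure the spread between these libraries. Libraries with the same number did not deviate together in every pair (correlations 0.00254, 0.0736 and -0.0317 over 68681 shared regions), so no pairing was used. Named regions were the one at the start, the most enriched, and those of largest positive and negative difference, and from each list up to 3 genes of largest difference could be named; the -4100 and -13290 bp regions of Nr4a1, the Nr4a2 body region and other regions or values named to illustrate a count were chosen after their values were seen. The 6 genes, lists and tests were chosen with earlier results of these data known. Alternatives were a 10 kb window, equal list lengths, a q limit of 1e-05, a peak centre inside the window, 100 bp of peak per region, other ways to take the fold, a replicate block, a variance trend and each library left out. Promoter sequences are RefSeq's, GRCm38.p6, with 6 of 6 genes matched.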

Additional observations from a re-analysis of the deposited data

How the results depend on the processing

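Of 502 alternative values over 43 results, 447 stayed on the same side with the same sign, or for counts changed by less than 1.5 times. Part of these could not change, since the replicate block and the variance trend leave the differences themselves equal by construction. Many named regions were also picked for a large difference, which favours a kept sign. The count is therefore not a measure of robustness. Limma called 0 regions in every setting. With 3 libraries per group no exact p can pass 0.05, so those tests say nothing about stability. Covered length and the centred counts as results of their own, with their alternatives, were added after the data were seen.

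A window of 10 kb gave a difference in peak number of 0.333 at Nr4a3 and 0 at Klf2, in median width of 603 bp at Klf4 and in mean log2 fold of -0.0167 at Nr4a3, -0.0957 at Nr4a1, -0.100 at Klf2, -0.180 at Klf4 and -0.0721 at Klf6. A q of at most 1e-05 gave 0.667 peaks at Klf2 and at Klf6, -21.8 bp at Nr4a2, -36.2 bp at Klf6, and 1 of 65 regions with every DTR fold higher (1.54%, against 6.53% of all shared regions). Lists of equal length gave -2.67 peaks at Nr4a1, -0.667 at Nr4a3, -0.333 at Klf6 and -8.50 bp at Nr4a2. Without centring, mean log2 fold was -0.0432 at Klf2, 0.0216 at Klf4 and 0.0199 at Klf6, and the Nr4a2 and Nr4a3 starts turned to 0.00407 and 0.0189. In that setting 5 of 74 regions had every DTR fold lower (6.76%, against 5.14% of all shared regions). Length-weighted folds gave 0.0207 at Klf4. The cause was not tested.

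Leaving out 1 library, peak number ran from -0.333 to 0.333 at Nr4a3 and at Klf6 from -0.5 to 0 at Klf2, -2.67 to -1 at Klf4 and -1.5 to -0.5 at Nr4a2. Median width ran from -6 to 101 bp at Nr4a1, 0 to 55 bp at Nr4a2, -67.2 to 52.9 bp at Nr4a3 -93.8 to 51.2 bp at Klf4 and 73.6 to 289 bp at Klf6. Mean log2 fold ran from -0.0847 to -0.0302 at Nr4a1, -0.0733 to 0.00963 at Nr4a2, -0.00769 to 0.0407 at Nr4a3, -0.0371 to 0.0132 at Klf4 and -0.0401 to 0.0108 at Klf6, and covered length from -53 to 286 bp at Nr4a2, -5.5 to 485 bp at Nr4a3, 286 to 843 bp at Klf2 and 941 to 2478 bp at Nr4a1. The starts of Nr4a2 (-0.0493 to 0.00545) and Nr4a3 (-0.0428 to 0.00779) and the Nr4a3 region at 6516 bp (-0.233 to 0.0216) also turned. Regions with every DTR fold lower numbered 13 to 21: 20 (26.7%, against 16.7% of all shared regions) without DTR library 3 and 21 (28.4%, against 21.0%) without WT library 1. Those higher numbered 2 to 7: 6, 7 and 6 (8.11%, 9.46% and 8.11%, against 12.7%, 10.6% and 10.7%) without WT libraries 1, 2 and 3.

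With a replicate block limma again called 0 regions, and locus differences are equal by construction, with a smallest sign-flip p of 0.25; the Nr4a1 covered length difference of 1772 bp had p = 0.25 by this exact sign-flip test.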

Other observations

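The nearest region inside and outside each end of the 50 kb windows was read, 12 of each over the 6 loci. Inside, 8 had a peak in all 6 libraries, with a median mean fold of 4.24 in DTR and 3.89 in WT. Outside, 9 did, with 5.79 in DTR and 6.02 in WT. The distance from the limit to the nearest outside region varied from 33 bp at Klf6 to 751322 bp at Nr4a2. That to the nearest inside region varied from 518 bp at Klf6 to 49470 bp at Nr4a2. The latter region was the Nr4a2 start, with mean folds of 8.90 in DTR and 8.88 in WT, so not all inside values are from near the limit.

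The gene on another chromosome whose log2 covered length, centred per library, was most like that of each gene over the 6 libraries was Insyn1 for Nr4a1 (Pearson's r = 0.997), Mia2 for Nr4a2 (0.999), Bnip1 for Nr4a3 (0.989), Emc1 for Klf2 (0.992), Obsl1 for Klf4 (0.978) and Dytn for Klf6 (0.988). These are the highest of 16307 to 17022 genes compared over 6 points that share list length, and 66 to 291 genes for each of the 6 had r above 0.9.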
